A study of Danio rerio with 9 samples.

Results

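The cone opsins, 8 genes of 23707 gene IDs counted, were followed in RNA from sorted zebrafish Müller glia (MG). They were chosen by name, with earlier results of these data known: *opn1lw1* and *opn1lw2* (red cone), *opn1mw1*, *opn1mw2*, *opn1mw3* and *opn1mw4* (green cone), *opn1sw2* (blue cone) and *opn1sw1* (UV cone). Each was given 1 gene ID, and all 8 passed the filter on low counts. The symbol opn1sw1 itself matched no ID, so the ID named OPN1SW (ENSDARG00000045677), the one remaining short-wave opsin, was taken as *opn1sw1*. Red opsin genes lie side by side next to *opn1sw2*, and the 4 green opsin genes form another run of neighbours (RefSeq gene order, assembly GRCz12tu). Near-identical neighbours can share reads, so the split within the red and within the green class is less certain than each class sum.

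There were 3 groups of 3 libraries: *mych*-/- fish at 2 days post-injury (dpi), Wt fish at 2 dpi, and Wt fish without injury. All carried the *gfap:GFP* transgene, in which the *gfap* promoter drives GFP in MG and, after injury, in the progenitors derived from them, and GFP+ cells were purified by fluorescence-activated cell sorting (FACS). Injured retinas had received several needle pokes, which destroy all neuron types at each lesion. Retinas were pooled for sorting. The study as a whole used adult male and female fish, without giving the sexes in each pool. *mych* encodes a Myc family transcription factor, and the *mych*-/- line carries a germline frameshift allele. No uninjured *mych*-/- group was among the samples analysed here, so in *mych*-/- 2 dpi against Wt uninjured the injury and the genotype cannot be told apart. Labels do not say that replicates came from separate pools of fish, so p-values measure the spread between these libraries, which may be partly technical.

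Opsins are the light-absorbing proteins of photoreceptors. Each cone type is defined by the opsin it makes, and zebrafish express the tandem copies of the red and green opsins in different parts of the retina. In zebrafish *opn1lw2*, *opn1mw1* and *opn1mw2* are known from central and dorsal cones, and *opn1lw1*, *opn1mw3* and *opn1mw4* from peripheral and ventral ones. MG are not known to rely on visual opsins of their own, but they span the retina, ensheath photoreceptor cell bodies and take part in recycling the visual chromophore.

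Library totals ran from 46835977 to 77133615 counts, so the spread between replicates, not counting error, limited the precision of all cone opsins. Transcripts of *mych* itself measured 145, 197 and 158 CPM (read counts scaled to the effective library size) in *mych*-/- 2 dpi, 180, 233 and 319 CPM in Wt 2 dpi and 20.0, 11.0 and 25.9 CPM in Wt uninjured libraries. A frameshift need not remove the transcript, so this level does not check the genotype labels. MG genes were present in each group, at unlike levels. *apoeb*, an apolipoprotein, averaged 13542, 12125 and 3218 CPM in *mych*-/- 2 dpi, Wt 2 dpi and Wt uninjured libraries, and GFAP, the glial filament gene, 788, 673 and 188 CPM. In the same order GLUL (ENSDARG00000099776) averaged 3553, 2733 and 4788 CPM, ca2 10.9, 10.3 and 36.6 CPM, and S100B 4.56, 2.92 and 0.606 CPM. Of 15 MG genes, 7 were called higher and 2 lower in each injured group against Wt uninjured, at thresholds given below. The 7 differed between the groups, as S100B was called higher only in *mych*-/- 2 dpi. Of all genes tested, 16.3% were called higher and 9.53% lower in *mych*-/- 2 dpi, and 22.3% and 19.8% in Wt 2 dpi. Photoreceptor transcripts were present in each sort as well. In bulk RNA such as this, fewer cells of a type and less RNA per cell cannot be told apart. CPM and shares are also relative to the other RNA of a library. A fall or a percent remaining below is therefore not an absolute amount of transcript.

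With all 9 libraries in the fit, all 8 cone opsins had a negative log2 fold change in each injured group against Wt uninjured. Of these, 6 were called lower at the thresholds given below. Cone opsin counts made up 0.824%, 0.627% and 0.477% of all counts in *mych*-/- 2 dpi libraries, 0.822%, 0.503% and 0.576% in Wt 2 dpi libraries and 1.55%, 1.45% and 1.17% in Wt uninjured libraries. Each injured library lay below each uninjured one, while both injured groups overlapped. The 95% Wilson interval of each share was at most 0.00342 percentage points wide on either side and covers counting error only. An exact two-sided permutation test gave p = 0.1 for *mych*-/- 2 dpi against Wt uninjured (means 0.643% and 1.39%, n = 3 each). The same exact test gave p = 0.1 for Wt 2 dpi against Wt uninjured (means 0.634% and 1.39%) and p = 0.9 between both injured groups (0.643% and 0.634%). With 3 against 3 libraries this test cannot go below 0.1. Scaled to the Wt uninjured mean, 42.1% ± 12.3 of the summed cone opsin CPM remained in *mych*-/- 2 dpi and 43.5% ± 10.6 in Wt 2 dpi libraries (SD of the 3 injured libraries, leaving out the spread of the Wt uninjured mean).

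In Wt, 6 of the 8 cone opsins were lower at 2 dpi at an adjusted p of at most 0.05 and a log2 fold change beyond 0.5, the same 6 did not overlap between groups, and none was higher. Over all genes tested, 19.8% were called lower in that comparison and 27.9% were lower without overlap. In *mych*-/- 2 dpi against Wt uninjured, 6 of 8 were again called lower (9.53% of all genes) and 6 were lower without overlap (21.5% of all genes). Those not called in either comparison were *opn1lw1* and *opn1mw3*. Both comparisons use the same Wt uninjured libraries and are not independent. All tests were edgeR quasi-likelihood tests with p-values adjusted over 20484 genes, and the adjusted p-values below are from them.

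**Figure D1:**
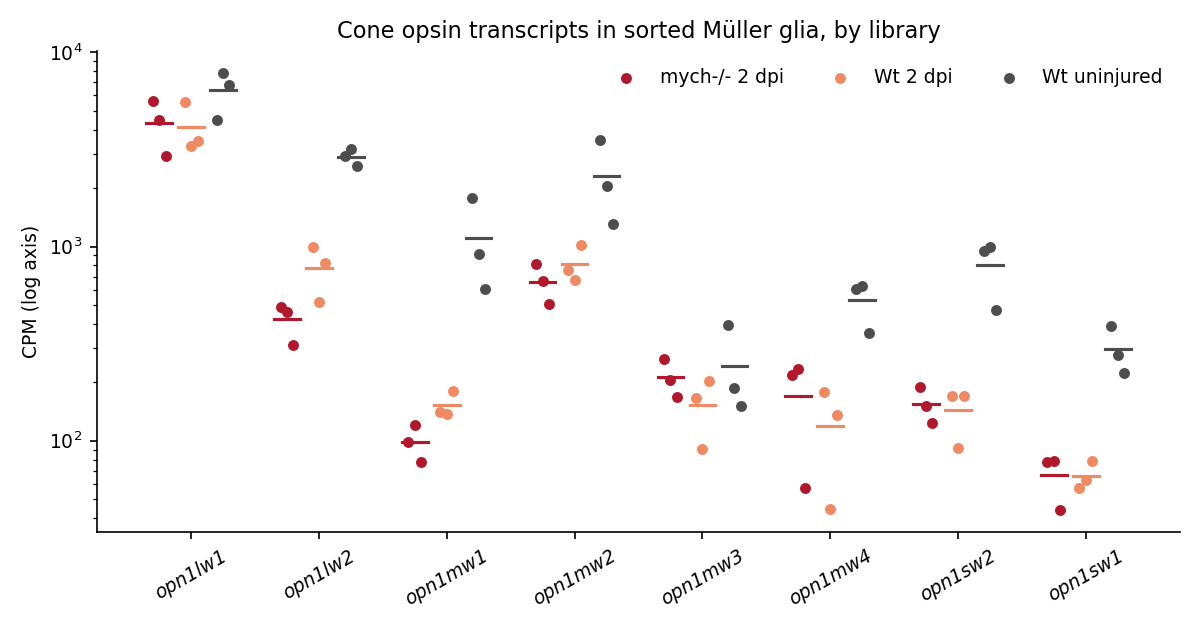
Level of each cone opsin in CPM (log axis) in every library, with points for libraries, lines for group means and groups from left to right *mych*-/- 2 dpi, Wt 2 dpi and Wt uninjured. The injured libraries lie below all uninjured ones for 6 of the 8 cone opsins and overlap them for *opn1lw1* and *opn1mw3*.

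Red opsins split. *opn1lw1* measured 5631, 4469 and 2934 CPM in *mych*-/- 2 dpi, 5529, 3307 and 3501 CPM in Wt 2 dpi and 4465, 7869 and 6816 CPM in Wt uninjured libraries. The groups overlapped, because the lowest uninjured library lay under the highest of each injured group. The *opn1lw1* log2 fold change was -0.55 (SE 0.32, adjusted p = 0.234) for *mych*-/- 2 dpi and -0.63 (SE 0.32, adjusted p = 0.133) for Wt 2 dpi, each against Wt uninjured, and 68.1% ± 21.2 and 64.4% ± 19.3 of the Wt uninjured mean remained in *mych*-/- 2 dpi and Wt 2 dpi libraries. Its neighbour *opn1lw2* measured 491, 462 and 312 CPM in *mych*-/- 2 dpi, 993, 518 and 818 CPM in Wt 2 dpi and 2926, 3179 and 2612 CPM in Wt uninjured libraries. No library of one group overlapped those of another, with *mych*-/- 2 dpi lowest and Wt uninjured highest. *opn1lw2* fell, with log2 fold changes of -2.78 (SE 0.29, adjusted p = 3.79e-05) in *mych*-/- 2 dpi and -1.90 (SE 0.28, adjusted p = 0.000216) in Wt 2 dpi against Wt uninjured. Remaining were 14.5% ± 3.31 in *mych*-/- 2 dpi and 26.7% ± 8.27 in Wt 2 dpi libraries. Summed before the fit, the red opsins fell, with log2 fold changes of -0.96 (adjusted p = 0.0366) in *mych*-/- 2 dpi and -0.93 (adjusted p = 0.0281) in Wt 2 dpi, with 51.3% and 52.6% of the Wt uninjured mean remaining.

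Of the 4 green opsins, 3 fell and 1 was not called. *opn1mw1* measured 98.8, 120 and 77.8 CPM in *mych*-/- 2 dpi, 140, 137 and 181 CPM in Wt 2 dpi and 1785, 921 and 602 CPM in Wt uninjured libraries. Here too the 3 groups were free of overlap, and uninjured replicate 1 was well above the other uninjured libraries. *opn1mw1* fell, with log2 fold changes of -3.48 (SE 0.37, adjusted p = 5.37e-05) in *mych*-/- 2 dpi and -2.85 (SE 0.36, adjusted p = 8.67e-05) in Wt 2 dpi, leaving 8.98% ± 1.93 and 13.9% ± 2.21 of the Wt uninjured mean. *opn1mw2*, the most counted green opsin in each library, measured 810, 661 and 506 CPM in *mych*-/- 2 dpi, 753, 673 and 1016 CPM in Wt 2 dpi and 3554, 2044 and 1308 CPM in Wt uninjured libraries. Each uninjured library exceeded each injured one. Its log2 fold change was -1.80 (SE 0.35, adjusted p = 0.00250) in *mych*-/- 2 dpi and -1.50 (SE 0.34, adjusted p = 0.00410) in Wt 2 dpi, with 28.6% ± 6.61 and 35.4% ± 7.80 remaining.

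*opn1mw3* changed least of the green opsins. It measured 264, 206 and 169 CPM in *mych*-/- 2 dpi, 167, 91.1 and 202 CPM in Wt 2 dpi and 393, 188 and 150 CPM in Wt uninjured libraries, so only uninjured replicate 1 stood above the injured libraries. The log2 fold change was -0.20 (SE 0.37, adjusted p = 0.758) in *mych*-/- 2 dpi and -0.67 (SE 0.37, adjusted p = 0.172) in Wt 2 dpi, and 87.3% ± 19.8 and 62.8% ± 23.2 of the Wt uninjured mean remained. Without Wt uninjured replicate 1 those shares were 130% and 92.2%, and the log2 fold change in *mych*-/- 2 dpi was 0.37. *opn1mw4* measured 218, 234 and 57.3 CPM in *mych*-/- 2 dpi, 179, 44.2 and 135 CPM in Wt 2 dpi and 604, 628 and 359 CPM in Wt uninjured libraries. Each injured group held 1 library far under its others. *opn1mw4* fell, with log2 fold changes of -1.64 (SE 0.54, adjusted p = 0.0448) in *mych*-/- 2 dpi and -2.15 (SE 0.55, adjusted p = 0.00839) in Wt 2 dpi, with 32.0% ± 18.4 and 22.6% ± 13.0 remaining. Its call in *mych*-/- 2 dpi against Wt uninjured was lost in 8 of 20 alternatives, among them leaving out any 1 of the *mych*-/- 2 dpi libraries, Wt uninjured replicate 1 or 2, or Wt 2 dpi replicate 3 (adjusted p 0.0219 to 0.119 over the 20). As a sum, green opsins fell, with log2 fold changes of -1.87 (adjusted p = 0.00236) in *mych*-/- 2 dpi and -1.75 (adjusted p = 0.00193) in Wt 2 dpi, with 27.3% and 29.7% remaining. Without Wt uninjured replicate 1 these shares were 37.9% and 40.7%.

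Blue and UV opsins fell in both injured groups. *opn1sw2*, the blue opsin, measured 189, 150 and 123 CPM in *mych*-/- 2 dpi, 170, 91.7 and 170 CPM in Wt 2 dpi and 951, 997 and 473 CPM in Wt uninjured libraries. It fell, with log2 fold changes of -2.39 (SE 0.33, adjusted p = 0.000336) in *mych*-/- 2 dpi and -2.49 (SE 0.33, adjusted p = 0.000127) in Wt 2 dpi, leaving 19.1% ± 4.12 and 17.8% ± 5.60. *opn1sw1*, the UV opsin, measured 78.1, 78.8 and 43.9 CPM in *mych*-/- 2 dpi, 57.3, 62.7 and 78.3 CPM in Wt 2 dpi and 389, 277 and 224 CPM in Wt uninjured libraries. It fell, with log2 fold changes of -2.15 (SE 0.28, adjusted p = 0.000198) in *mych*-/- 2 dpi and -2.17 (SE 0.28, adjusted p = 9.07e-05) in Wt 2 dpi, leaving 22.6% ± 6.73 and 22.3% ± 3.68. For both genes no injured library reached the lowest uninjured one.

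**Figure D2:**
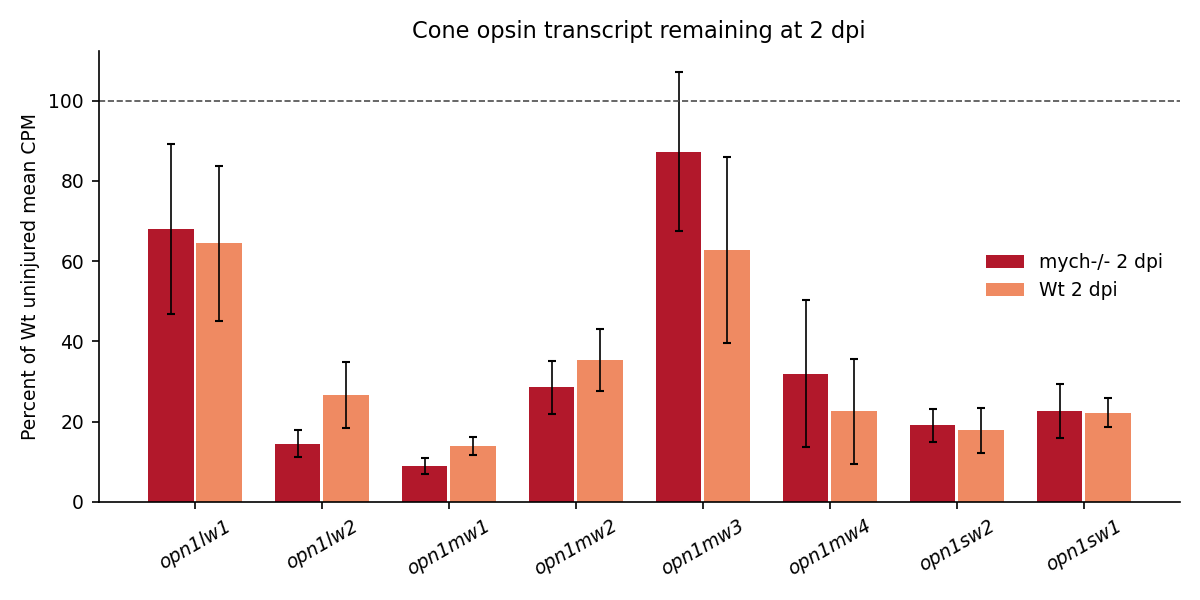
Mean CPM of each cone opsin at 2 dpi as a percent of the Wt uninjured mean (dashed line at 100), with *mych*-/- 2 dpi left of Wt 2 dpi in each pair and error bars of 1 SD over the 3 injured libraries. *opn1mw1* sits at 8.98% and 13.9%, while *opn1lw1* and *opn1mw3* keep 62.8% to 87.3%.

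Between *mych*-/- 2 dpi and Wt 2 dpi no cone opsin was called by edgeR, where 1.33% of all genes were called lower and 0.366% higher. Cone opsin log2 fold changes ran from -0.88 to 0.50, 3 of 8 negative, with a median of 0.05 beside 0.03 over all genes. None but *opn1lw2* had an unadjusted p under 0.05. *opn1lw2* and *opn1mw1* were lower without overlap in *mych*-/- 2 dpi, 2 of 8 beside 14.5% of all genes. *opn1lw2* stood at -0.88 on the log2 scale (SE 0.27, adjusted p = 0.11, lower in 3 of 3 libraries), and DESeq2 called it at an adjusted p of 0.0167. For *opn1mw1* it was -0.63 (SE 0.34, adjusted p = 0.336). *opn1lw1* gave 0.08 (SE 0.32, adjusted p = 0.936), *opn1mw3* 0.47 (SE 0.37, adjusted p = 0.535) and *opn1mw4* 0.50 (SE 0.53, adjusted p = 0.678). None of these p-values shows that the groups were alike.

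Because the losses were unequal, the make-up of the cone opsin counts differed between groups. *opn1lw1* made up 72.4%, 70.0% and 69.5% of them in *mych*-/- 2 dpi, 69.2%, 67.2% and 57.4% in Wt 2 dpi and 29.6%, 48.9% and 54.3% in Wt uninjured libraries. It led in every library, in read counts not corrected for transcript length, and each injured library lay above each uninjured one. The green opsins together made up 17.9% to 19.2% in *mych*-/- 2 dpi, 15.5% to 25.1% in Wt 2 dpi and 19.3% to 42.1% in Wt uninjured libraries, where replicate 1 had the highest share. Blue opsin made up 2.35% to 2.91%, 1.86% to 2.79% and, in Wt uninjured, 3.77% to 6.31%, and UV opsin 1.0% to 1.24%, 0.718% to 1.28% and, in Wt uninjured, 1.72% to 2.58%. So blue and UV shares in injured libraries stayed below those of all uninjured ones. This was not particular to blue and UV. *opn1lw2* made up 6.31% to 7.39%, 10.5% to 13.4% and, in Wt uninjured, 19.4% to 20.8%. *opn1mw1* made up 1.27% to 1.89%, 1.75% to 2.97% and, in Wt uninjured, 4.80% to 11.8%. Shares of *opn1mw2*, *opn1mw3* and *opn1mw4* overlapped between injured and uninjured libraries.

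**Figure D3:**
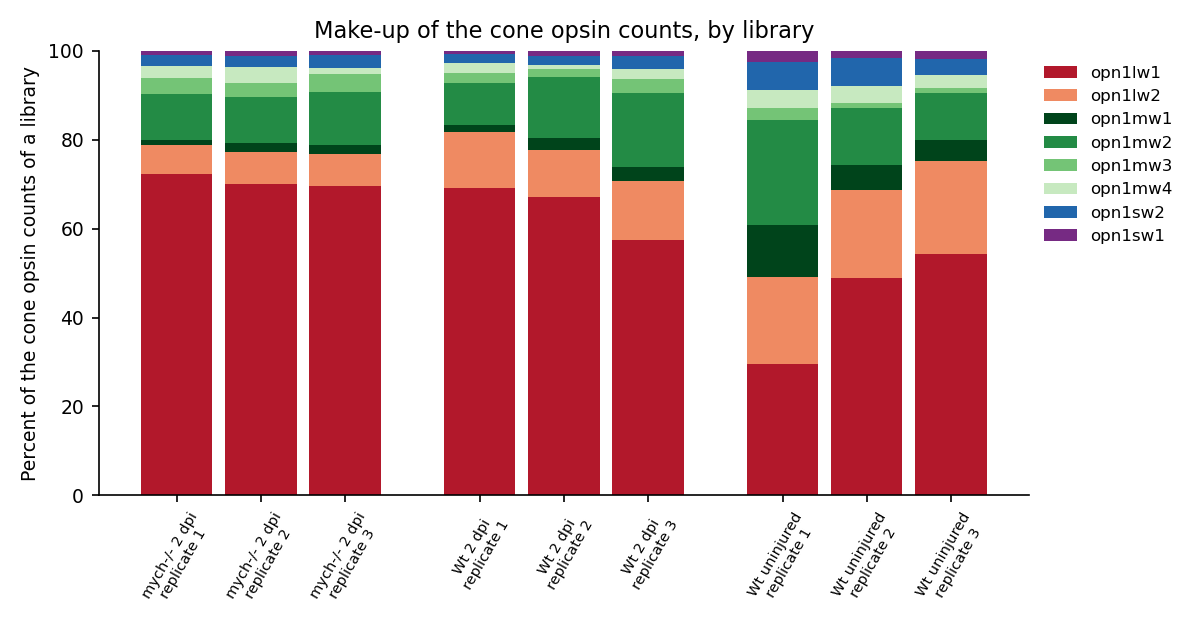
Percent of the cone opsin counts of each library that fell to each cone opsin, with *mych*-/- 2 dpi, Wt 2 dpi and Wt uninjured libraries from left to right. The *opn1lw1* part takes 57.4% to 72.4% of the injured bars and 29.6% to 54.3% of the uninjured ones.

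Ratios taken within a library do not depend on how libraries are scaled. The 4 class ratios are parts of the same total, of which red opsins made up 49.0% to 81.6%. They are therefore tied to each other and are not separate results. Blue over other cone opsins was lower without overlap in both injured groups, with log2 differences of -1.09 in *mych*-/- 2 dpi and -1.29 in Wt 2 dpi, as was UV, with -0.89 and -0.93 (exact p = 0.1, the smallest possible, and 0.2 adjusted over the 12 ratios and comparisons run, for all 4, n = 3 each). The log2 ratio of red over other cone opsins averaged 1.79 ± 0.08 in *mych*-/- 2 dpi, 1.74 ± 0.44 in Wt 2 dpi and 0.89 ± 0.85 in Wt uninjured libraries (SD, n = 3 each, exact p = 0.1 and 0.2 against Wt uninjured, adjusted 0.2 and 0.343). The log2 ratio of green over other cone opsins averaged -2.12 ± 0.07 in *mych*-/- 2 dpi, -2.03 ± 0.44 in Wt 2 dpi and -1.41 ± 0.84 in Wt uninjured libraries (SD, n = 3 each, exact p = 0.1 and 0.4, adjusted 0.2 and 0.533). Between the injured groups the 4 class differences lay from -0.09 to 0.20, with exact p from 0.4 to 1 (n = 3 each).

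Within a class the shares moved too. *opn1lw1* was 92.0%, 90.6% and 90.4% of red opsin counts in *mych*-/- 2 dpi, 84.8%, 86.5% and 81.1% in Wt 2 dpi and 60.4%, 71.2% and 72.3% in Wt uninjured libraries. *opn1mw3* was 19.0%, 16.8% and 20.8% of green opsin counts in *mych*-/- 2 dpi, 13.4%, 9.64% and 13.2% in Wt 2 dpi and 6.21%, 4.97% and 6.21% in Wt uninjured libraries. *opn1mw1* ran the other way, with 7.11%, 9.86% and 9.62% in *mych*-/- 2 dpi, 11.3%, 14.5% and 11.8% in Wt 2 dpi and 28.2%, 24.4% and 24.9% in Wt uninjured libraries. In all 3 the groups were free of overlap and Wt 2 dpi lay between the other groups. *opn1mw2* and *opn1mw4* showed no such order: *opn1mw2* was 54.1% to 62.5% of green counts in *mych*-/- 2 dpi, 60.8% to 71.1% in Wt 2 dpi and 54.1% to 56.1% in Wt uninjured libraries, and *opn1mw4* 7.08% to 19.2%, 4.68% to 14.5% and 9.54% to 16.6%. These shares were picked after their values were seen and carry no test. Retinal position was not recorded for these libraries.

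Other photoreceptor genes fell with the cone opsins. Of 19 rod phototransduction genes, 17 were lower in *mych*-/- 2 dpi and 17 in Wt 2 dpi, each against Wt uninjured, with median log2 fold changes of -3.30 and -3.13. Of 27 cone phototransduction genes, 19 and 25 were lower (medians -1.58 and -1.89). Of 31 genes listed as shared by photoreceptors, 17 and 21 were lower (medians -1.22 and -1.57). That shared list was mixed, with log2 fold changes from -3.49 to -0.06 in Wt 2 dpi. In *mych*-/- 2 dpi they ran from -3.75 to 0.52, with 27 of 31 negative. Over all genes, 9.53% and 19.8% were called lower in these comparisons, and the medians were -0.0029 and -0.022. *opn1lw1* and *opn1mw3* lay at the mild end of the cone list, where 26 of 27 genes had a lower log2 fold change than either of them in Wt 2 dpi, and 25 and 27 of 27 did in *mych*-/- 2 dpi. *opn1mw1* sat at the other end, with 3 of the 27 genes of this list further down in Wt 2 dpi and 0 of 27 in *mych*-/- 2 dpi. Whether each gene of the list is confined to cones was not tested.

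Among the most abundant genes of these lists, GNAT1, the rod transducin subunit, averaged 241 ± 141 CPM in Wt 2 dpi against 2857 ± 1213 CPM in Wt uninjured libraries (log2 fold change -3.57, adjusted p = 0.000194). PDE6G, a subunit of the rod phosphodiesterase, averaged 72.9 ± 34.4 against 863 ± 309 CPM. In gnb1b, a G protein beta subunit, the change was smaller, 203 ± 36.9 against 433 ± 55.9 CPM. GNAT2, the cone transducin subunit, averaged 2613 ± 859 against 7352 ± 1710 CPM (log2 fold change -1.49, adjusted p = 0.00144). Likewise, pde6ha of the cone phosphodiesterase averaged 6150 ± 2322 against 15375 ± 2618 CPM, and ARR3 (ENSDARG00000056511), a cone arrestin, 4028 ± 1764 against 9972 ± 4841 CPM. Of the shared genes, rbp3, the retinoid carrier between photoreceptors and neighbouring cells, averaged 698 ± 195 against 3913 ± 1060 CPM and gucy2d, a guanylate cyclase, 482 ± 140 against 1671 ± 799 CPM. All of these were called lower in Wt 2 dpi, ARR3 not without Wt uninjured replicate 2 (adjusted p = 0.089) or Wt 2 dpi replicate 2 (0.059). ARR3 was not called in *mych*-/- 2 dpi against Wt uninjured (adjusted p = 0.0542). The retinol-binding protein gene rbp4l was not called in Wt 2 dpi, with 4499 ± 1897 CPM against 4700 ± 2010 CPM in Wt uninjured libraries (log2 fold change -0.06, adjusted p = 0.913). All values of this paragraph are means ± SD with n = 3, and the adjusted p-values are edgeR's.

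**Figure D4:**
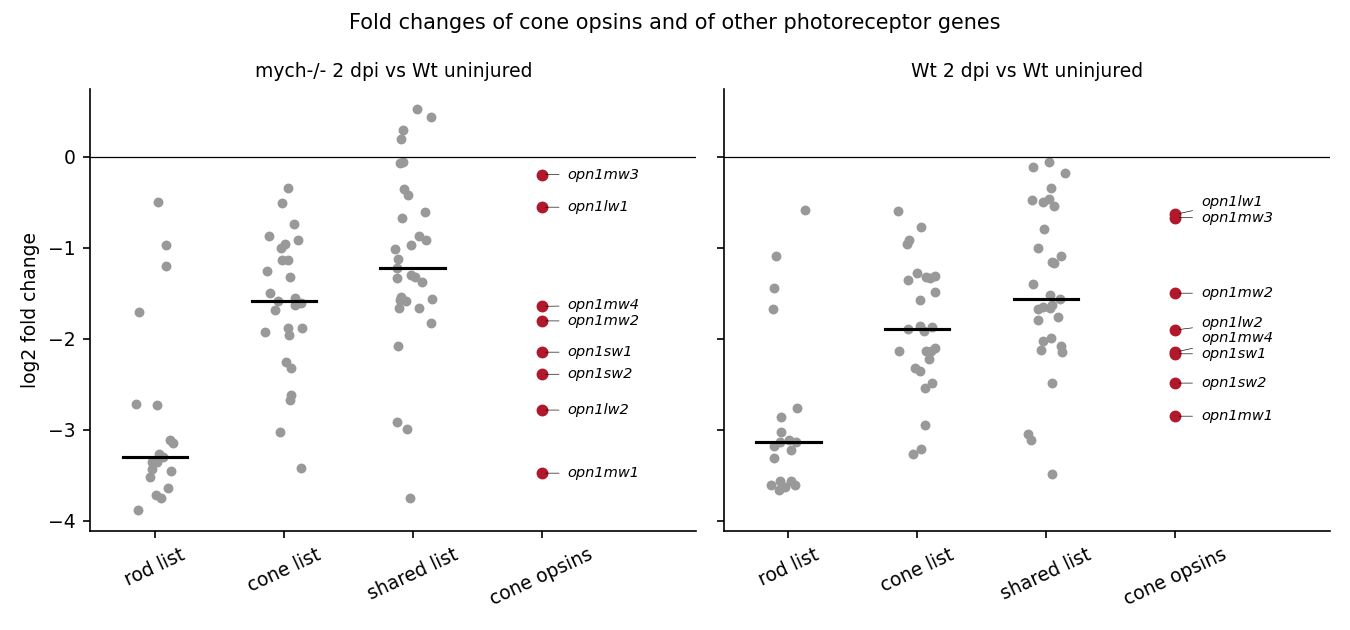
log2 fold changes of the rod, cone and shared photoreceptor lists (grey points, line at the median) beside the 8 cone opsins (red, named), for *mych*-/- 2 dpi against Wt uninjured on the left and Wt 2 dpi against Wt uninjured on the right. The cone opsins span from -3.48 to -0.20 on the left and from -2.85 to -0.63 on the right, with *opn1lw1* and *opn1mw3* uppermost.

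Genes of other cells moved beside the cone opsins. The 24 inner retinal neuron genes included 8 lower in *mych*-/- 2 dpi and 20 lower in Wt 2 dpi against Wt uninjured (medians -0.94 and -1.85), and their summed level ran from 2579 to 4780 CPM in *mych*-/- 2 dpi, 1524 to 3215 CPM in Wt 2 dpi and 7060 to 8083 CPM in Wt uninjured libraries. SNAP25 (ENSDARG00000058117), a synaptic protein gene, averaged 396 ± 141 CPM in Wt 2 dpi against 1228 ± 128 CPM in Wt uninjured libraries, a second SNAP25 ID (ENSDARG00000020609) 340 ± 158 against 1161 ± 322 CPM, and GAD1, which makes the transmitter GABA, 331 ± 137 against 1205 ± 172 CPM (SD, n = 3 each). Over all genes, 16.3% were called higher and 9.53% lower in *mych*-/- 2 dpi, and 22.3% and 19.8% in Wt 2 dpi, each against Wt uninjured. Of 15 MG genes, 7 were called higher and 2 lower in each injured group, and their sum ran from 13232 to 35777 CPM in *mych*-/- 2 dpi, 15045 to 23448 CPM in Wt 2 dpi and 10524 to 17514 CPM in Wt uninjured libraries. GLUL (ENSDARG00000099776), the MG glutamine synthetase, was not called (2733 ± 675 CPM in Wt 2 dpi against 4788 ± 1609 CPM in Wt uninjured), nor was SLC1A2 (ENSDARG00000102453), a glutamate transporter. A second GLUL ID (ENSDARG00000100003) was called higher in Wt 2 dpi (792 against 257 CPM, log2 fold change 1.62, edgeR adjusted p = 0.00131). A second SLC1A2 ID (ENSDARG00000052138) was called lower (157 against 579 CPM, log2 fold change -1.89, edgeR adjusted p = 0.00170). Of 13 microglia genes, 7 were higher in *mych*-/- 2 dpi and 6 in Wt 2 dpi, at sums of 54.1 to 90.1 CPM, 47.4 to 77.3 CPM and, in Wt uninjured, 13.0 to 33.0 CPM, with LCP1 at 15.7 ± 6.87 CPM in Wt 2 dpi against 3.54 ± 2.16 CPM in Wt uninjured. CORO1A was called higher in Wt 2 dpi as well (7.70 ± 2.49 against 2.40 ± 1.68 CPM), while MPEG1 was not (7.56 ± 3.48 against 3.50 ± 1.93 CPM). Of 11 pigment epithelium genes tested, 0 were called in *mych*-/- 2 dpi (0 at an unadjusted p under 0.05 and 0 by DESeq2) and 1 in Wt 2 dpi (TYRP1, higher, a call lost in 6 of 20 alternatives, among them leaving out Wt 2 dpi replicate 1 or any 1 Wt uninjured library), and their sum was 32.1 to 95.6 CPM, 26.5 to 410 CPM and, in Wt uninjured, 37.9 to 58.8 CPM. RPE65 (69.1 ± 78.7 CPM in Wt 2 dpi against 23.8 ± 4.61 CPM in Wt uninjured) and pmela (20.1 ± 24.5 against 7.21 ± 2.52 CPM) were not called. The part of these cells in the opsin result was not tested. Between *mych*-/- 2 dpi and Wt 2 dpi edgeR called 0 of the 172 genes tested on all lists of this report, 27 had an unadjusted p under 0.05, and DESeq2 called 8. Over all genes edgeR called 1.33% lower and 0.366% higher. The all-gene shares for the unadjusted p and for DESeq2 are not given here, so the 27 and the 8 have no base rate beside them.

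In the visual cycle that regenerates the opsins' chromophore, 2 of 13 genes tested were called higher and 2 lower in each injured group against Wt uninjured. The lower pairs differed, as RGR, described below, was called lower only in Wt 2 dpi. Of all genes, 16.3% were called higher and 9.53% lower in *mych*-/- 2 dpi, and 22.3% and 19.8% in Wt 2 dpi, so these counts do not set the visual cycle genes apart. rlbp1a, the retinaldehyde-binding protein of MG, averaged 897 CPM in *mych*-/- 2 dpi, 857 CPM in Wt 2 dpi and 1045 CPM in Wt uninjured libraries and was not called. STRA6, a receptor for retinol uptake, rose to 95.1 ± 5.97 CPM in Wt 2 dpi, against 13.6 ± 5.67 CPM in Wt uninjured (log2 fold change 2.81, edgeR adjusted p = 1.55e-05). In *mych*-/- 2 dpi STRA6 averaged 50.0 ± 4.48 CPM, below Wt 2 dpi without overlap but not called (log2 fold change -0.93, edgeR adjusted p = 0.0922). RDH10, a retinol dehydrogenase, fell to 134 ± 24.4 CPM in Wt 2 dpi, against 312 ± 101 CPM in Wt uninjured (log2 fold change -1.21, SD, n = 3 each).

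Opsins of other families were counted as well. Of 28 IDs, 24 were tested, and 7 were called lower in *mych*-/- 2 dpi and 11 in Wt 2 dpi against Wt uninjured, with none higher (medians -1.31 and -1.72). Over all genes, 9.53% and 19.8% were called lower in these comparisons. The highest, OPN4 (ENSDARG00000007553), a melanopsin, averaged 94.5 ± 21.2 CPM in Wt 2 dpi against 363 ± 175 CPM in Wt uninjured libraries (log2 fold change -1.94, edgeR adjusted p = 0.000543). Next came opn6b with 64.1 ± 22.6 against 211 ± 41.3 CPM and opn6a with 49.3 ± 22.6 against 118 ± 62.0 CPM. RGR, an opsin of MG and pigment epithelium that serves the visual cycle, fell to 22.8 ± 4.65 CPM, against 46.5 ± 9.54 CPM. OPN3 fell to 5.48 ± 0.63 CPM, against 28.7 ± 6.07 CPM, and opn9, tmtops2a, opn4xb, tmtops2b and opn7d were lower as well, with log2 fold changes of -2.35 to -1.40. The 11th, opn7c, had 0 counts in each Wt 2 dpi library against 91, 14 and 63 counts in Wt uninjured libraries. The calls of opn6a, opn4xb, tmtops2b, opn7d and opn7c were each lost when 1 of 2 to 4 single libraries, each Wt uninjured or Wt 2 dpi, was left out (adjusted p at most 0.115). With opn7c and opn7b, both at 0 counts in each Wt 2 dpi library, set to their bounds, the median stayed at -1.72. Those without a call were RRH, rgrb, valopa, valopb, opn4xa, opn7b, opn8a, opn8b, opn8c, tmtopsb, parapinopsinb and a further 2 OPN4 IDs, all under 30 CPM in both Wt groups.

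By the root mean square difference of centred log2 CPM over the 9 libraries, the genes most like the summed cone opsins among 10311 named genes of at least 10 CPM were DTX4 (0.18), KLHL32 (0.20) and CACNA2D4 (0.20). DTX4 averaged 44.2 CPM in *mych*-/- 2 dpi, 44.5 CPM in Wt 2 dpi and 111 CPM in Wt uninjured libraries. By the same measure *opn1lw1* and *opn1mw2* each stood 0.39 and *opn1mw1* 0.96 from the cone sum. That sum includes these genes, with *opn1lw1* at 29.6% to 72.4% of its counts, so these distances are partly built in.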

How the data were processed

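GFP+ MG from *gfap:GFP* retinas were dissociated with papain and sorted, and libraries of polyA RNA were run on an Illumina NovaSeq. The table as deposited by the authors holds whole-number read counts for each Ensembl gene ID, not normalized, in 1 column per library. Per the study, reads were mapped to the zebrafish genome (GRCz11). The submitters' processing notes name cutadapt 2.3, FastQC 0.11.8, STAR 2.7.8a, RSEM 1.3.3 and DESeq2. How reads shared by gene copies were assigned and whether strand was used are not given in the sources used here, so a split between near-identical opsins may be off. Per the study's methods for RNA work, fish were kept in the dark overnight, without saying whether this held for the sorts.

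Groups and replicate numbers came from the sample labels, and symbols from a names table. The test was that of edgeR 4.0.16 (R 4.3.3) on counts, with genes kept by filterByExpr (20484), TMM scaling, 1 model of 9 libraries, robust quasi-likelihood tests and Benjamini-Hochberg adjustment over all genes. Calls needed an adjusted p no higher than 0.05 together with a log2 fold change beyond 0.5 in either direction, as in the study, whose FPKM minimum needs lengths and was left out. The percent remaining is the ratio of group mean CPM. Shares and ratios of counts within a library were compared by exact two-sided permutation tests. Members and gene lists were chosen with earlier results of these data known. One gene of the chosen set is not reported here. Genes named are the cone opsins, the 3 most abundant genes of each list, every tested gene of the other opsins, and the 3 genes most like the summed cone opsins (log2 CPM with a prior count of 2). GFAP, ca2, S100B, *mych* and the second IDs of GLUL and SLC1A2 were named outside this rule, after their values were seen. DESeq2 1.42.0, other scalings, filters, fold thresholds and leaving out each library were alternatives. Replicate numbers did not pair the libraries.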

Additional observations from a re-analysis of the deposited data

How the results depend on the processing

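Each of the 6 cone opsin calls in Wt 2 dpi against Wt uninjured held under all 20 alternatives, and in *mych*-/- 2 dpi against Wt uninjured all but that of *opn1mw4* did. *opn1lw1* and *opn1mw3* were called under none (lowest adjusted p 0.0545 and 0.0694 in Wt 2 dpi). Not all 20 could change a call either way. Dropping the fold threshold could not remove a call, and raising it could not add any. Leaving out a library of the group not compared acted only through the shared fit and scaling. Between *mych*-/- 2 dpi and Wt 2 dpi, DESeq2 called 1 cone opsin, *opn1lw2*, where edgeR called 0. With the replicate number as a block (a replicate block, although 9 pairs of same-numbered libraries correlated at -0.08 to 0.09 and so were not treated as paired) 6 cone opsins were called in each injured group against Wt uninjured and 0 between the injured groups, as without it, and *opn1sw1* moved to -0.040 between *mych*-/- 2 dpi and Wt 2 dpi. Signs that turned between these groups when 1 library was left out ran from -0.15 to 0.35 for *opn1lw1*, -0.11 to 0.28 for *opn1sw1* and -0.14 to 0.27 for *opn1sw2*, and for *opn1mw3* in *mych*-/- 2 dpi against Wt uninjured from -0.45 to 0.37. The log2 ratio differences between both injured groups ran likewise from -0.18 to 0.26 (red), -0.29 to 0.14 (green) and -0.23 to 0.19 (UV). In Wt 2 dpi against Wt uninjured, rbp4l gave 0.016 with library size only and -0.39 to 0.34 when 1 library was left out, rgrb -0.24 to 1.0 and pmela -0.26 to 1.97. The cause was not tested. Without Wt uninjured replicate 1, 13.4% and 20.5% of *opn1mw1* and 40.5% and 49.5% of *opn1mw2* remained in *mych*-/- 2 dpi and Wt 2 dpi. With no scaling beyond library size, the all-gene median was 0.11 in *mych*-/- 2 dpi against Wt 2 dpi and 0.15 against Wt uninjured. Counts per coding length were not run, for want of lengths. Intervals of counting error are narrow at this depth, so 3 libraries a group, not depth, limit these results.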
